A study of Homo sapiens with 4 samples.

Results

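Metallothioneins are small, cysteine-rich proteins that bind zinc and copper, and they form a buffer for these metals in liver cells. When free zinc rises, the sensor MTF1 binds metal response elements in DNA and switches on metallothionein genes and SLC30A1, which encodes the zinc exporter ZnT1 of the plasma membrane. Importers of the ZIP family, encoded by the SLC39 genes, bring zinc into the cytosol. Metallothionein levels are known to be high in normal liver and low in many hepatocellular carcinomas (HCC). The genes described here are a fixed list of 10 named genes of this system, out of 61541 genes in the data. They are the metallothioneins MT1E, MT1F, MT1G, MT1M, MT1X and MT2A, the sensor MTF1, the exporter gene SLC30A1 and the importer genes SLC39A10 and SLC39A14. Of the 10 genes, 8 had at least 1 count in a library and 6 passed the filter on low counts and were tested.

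The data were RNA sequencing libraries of MHCC97H, an established human HCC cell line, with 2 libraries of control cells (shCon) and 2 libraries of cells in which the ubiquitin-binding protein UBXN1 was knocked down with a short hairpin RNA (shUBXN1). By the study's methods hairpins were delivered in the lentiviral vector pLKO.1. No treatment besides the hairpins is given for either group, and the sources used here do not name which of the study's UBXN1 hairpins the sequenced cells carried, so an effect of a hairpin's own sequence cannot be told apart from that of losing UBXN1. The labels number the libraries of each group without saying whether they came from separate cultures, so p-values measure the spread between these libraries, which may be technical. The libraries held 23373700 to 27380508 counts, of which mitochondrially encoded genes took 5.28% and 5.59% in shCon against 7.43% and 8.27% in shUBXN1. UBXN1 itself measured 67.0 and 77.3 CPM (counts scaled to library size) in the shCon libraries and 16.8 and 18.5 CPM in the shUBXN1 libraries, a log2 fold change of -2.03 with a standard error (SE) of 0.0963 (adjusted p = 9.98e-10 by edgeR's quasi-likelihood test). The hairpin libraries thus matched their labels. Throughout, a fold change compares shUBXN1 with shCon, an adjusted p is a Benjamini-Hochberg value over the 16863 genes tested, and a gene is said to have risen or fallen where this p was under 0.05.

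The coding sequences of the metallothioneins show what the counts of these genes rest on. MT2A and MT1X carried nearly all the counts, and MT1F and MT1M had none, yet all 4 have coding sequences of 186 bases with 20 cysteine codons among 61 codons. They are given from the start codon to the stop codon of the annotated transcript (GENCODE v44), with the cysteine codons TGC and TGT in capitals:
MT2A: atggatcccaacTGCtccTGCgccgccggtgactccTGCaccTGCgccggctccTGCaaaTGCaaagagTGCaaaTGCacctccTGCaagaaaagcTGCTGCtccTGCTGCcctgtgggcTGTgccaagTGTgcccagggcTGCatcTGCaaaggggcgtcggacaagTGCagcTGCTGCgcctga
MT1X: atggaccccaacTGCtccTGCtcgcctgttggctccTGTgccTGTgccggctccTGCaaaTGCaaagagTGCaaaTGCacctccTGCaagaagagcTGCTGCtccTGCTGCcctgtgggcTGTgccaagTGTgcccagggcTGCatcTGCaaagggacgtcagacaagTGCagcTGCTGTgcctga
MT1F: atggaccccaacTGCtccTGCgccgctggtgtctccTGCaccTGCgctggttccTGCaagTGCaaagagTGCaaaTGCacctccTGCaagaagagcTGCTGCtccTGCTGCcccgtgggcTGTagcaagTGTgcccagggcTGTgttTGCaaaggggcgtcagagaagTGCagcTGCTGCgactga
MT1M: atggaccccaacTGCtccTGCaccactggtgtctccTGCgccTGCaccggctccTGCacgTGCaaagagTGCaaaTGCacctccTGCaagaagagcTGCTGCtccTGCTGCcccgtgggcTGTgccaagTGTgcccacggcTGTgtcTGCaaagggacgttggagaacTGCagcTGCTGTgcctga
MT2A and MT1X were identical at 172 of the 186 positions (92.5%). MT2A and MT1F were identical at 91.4% of positions, and MT1X and MT1M at 90.3%. Over whole transcripts, 18.0% of the 50-base windows of MT1X occurred unchanged in a gene elsewhere in the genome, MT1A, MT1F, MT1G, MT1M and MT2A among them, against 11.1% of the windows of MT2A and none in SLC30A1, SLC39A10 or SLC39A14. A read that lies wholly in shared bases cannot be assigned to 1 gene, while a longer read or its mate may reach bases that are not shared. The split of counts between MT1X and its relatives is thus uncertain, to an extent that was not measured. An unnamed gene on the same strand (ENSG00000259827) covered 18.6% of the exon bases of MT1X, which brings the windows of MT1X found in any other annotated gene to 51.0%, and it had 0 counts in all 4 libraries. No member overlapped an exon on the opposite strand.

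The promoters of MT2A, MT1X and SLC30A1 hold matches to the sequence that MTF1 is known to read. The core of the metal response element, TGCACNC or TGCGCNC, was searched on both strands in the 250 bases before each start site of the RefSeq promoter table of GRCh38, and overlapping matches were merged. Capitals mark the matches, and each sequence runs 5′ to 3′ towards the start site. The windows are chr16:56608334-56608583 on the plus strand for MT2A, chr16:56682220-56682469 on the plus strand for MT1X and chr1:211579162-211579411 on the minus strand for SLC30A1:
MT2A promoter: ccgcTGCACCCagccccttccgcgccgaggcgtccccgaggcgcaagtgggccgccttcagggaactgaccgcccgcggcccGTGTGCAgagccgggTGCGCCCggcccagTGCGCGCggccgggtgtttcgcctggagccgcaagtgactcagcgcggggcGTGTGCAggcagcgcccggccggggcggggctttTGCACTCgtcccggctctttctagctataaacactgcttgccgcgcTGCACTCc
MT1X promoter: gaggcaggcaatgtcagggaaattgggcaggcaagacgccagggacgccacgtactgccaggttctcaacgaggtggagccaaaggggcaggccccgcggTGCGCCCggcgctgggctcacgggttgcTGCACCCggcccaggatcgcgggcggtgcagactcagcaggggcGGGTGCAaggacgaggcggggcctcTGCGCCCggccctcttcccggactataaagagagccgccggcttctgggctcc
SLC30A1 promoter: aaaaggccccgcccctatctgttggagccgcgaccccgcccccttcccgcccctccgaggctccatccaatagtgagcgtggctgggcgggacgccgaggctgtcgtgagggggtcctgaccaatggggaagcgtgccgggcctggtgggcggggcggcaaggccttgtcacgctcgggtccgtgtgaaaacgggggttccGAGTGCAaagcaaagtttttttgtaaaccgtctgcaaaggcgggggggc
MT2A held 7 matches, MT1X held 4 and SLC30A1 held 1. Among 35116 promoters of the same length, 24.8% held at least 1 match, 0.208% held at least 4 and 0.0911% held at least 5. These promoters were not matched for base composition, and the searched letters are rich in G and C. G and C made up 73.2% of the MT2A window, 70.0% of that of MT1X and 66.4% of that of SLC30A1. The windows without a match had 70.0% for MTF1 and 50.4% and 57.2% for SLC39A10. The promoter of MTF1 and both promoters of SLC39A10 held no match, which says only that these letters were not in those windows. The SLC39A10 windows lie inside the longest annotated extent of the gene and overlap annotated untranslated sequence, so they are not the bases before its outermost start. MT1E, MT1F, MT1G, MT1M and SLC39A14 had no entry in the promoter table. These matches are a description of the sequence, since no binding was measured in these cells.

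Metallothionein counts in MHCC97H cells came almost entirely from MT2A and MT1X. The sum over the metallothionein genes, which was not tested, had a lower mean in shUBXN1. Summed over the 6 metallothionein genes, the shCon libraries had 5.58 and 5.66 CPM and the shUBXN1 libraries 3.55 and 3.63 CPM. The means were 5.62 ± 0.0514 and 3.59 ± 0.0529 CPM (SD, n = 2 libraries each), so the summed level in shUBXN1 was 63.9% of that in shCon. The sums rest on 149 and 133 counts in shCon and 88 and 85 in shUBXN1, and these SDs understate the counting error of such totals. From the first to the second shCon library MT1X went down, from 1.39 to 0.723 CPM, while MT2A went up, from 4.16 to 4.68 CPM. This sum was not tested as a gene, and with 2 libraries a group a permutation of libraries could not pass any usual threshold. In bulk RNA, fewer cells that express a gene and less of its RNA in each cell cannot be told apart.

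MT2A (chr16:56608584-56609497, plus strand) held the most metallothionein counts, with 111 and 110 in the shCon libraries and 79 and 76 in the shUBXN1 libraries. These were 4.16 and 4.68 CPM against 3.19 and 3.24 CPM. The log2 fold change of -0.46 (SE 0.231) did not pass the edgeR test (adjusted p = 0.107). It passed under 1 alternative, limma on log2(TPM + 1) values, which are scaled for gene length (adjusted p = 0.0232), and its p ranged from 0.0232 to 0.386 over 14 alternatives.

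MT1X (chr16:56682470-56684196, plus strand) held 37 and 17 counts in the shCon libraries and 8 and 9 in the shUBXN1 libraries, or 1.39 and 0.723 CPM against 0.323 and 0.384 CPM. MT1X fell, at -1.57 on the log2 scale (SE 0.532, adjusted p = 0.021 by edgeR). This call rested on few reads and on single libraries. Without the first shCon library, which held the highest value, the log2 fold change was -1.03 with an adjusted p of 0.25, and without the first shUBXN1 library it was -1.46 with an adjusted p of 0.0766. DESeq2 gave an adjusted p of 0.0941 for MT1X, and over 13 alternatives its p ranged from 0.00652 to 0.25. The 2 shCon libraries differed in how much MT1X they held beside MT2A, with 33.3 and 15.5 counts of MT1X per 100 counts of MT2A, against 10.1 and 11.8 in shUBXN1.

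The other 4 metallothionein members were at or near 0. MT1E had 1 and 6 counts in shCon and 0 in both shUBXN1 libraries. With 0 set to a floor of 3 counts over the group, the shCon level lies 2.24-fold above that floor. This takes the shCon counts as exact, so it is not a lower bound on the true change. The second shCon library held 6 of these 7 counts, and without it the shCon counts fall under the floor. MT1G had 1 count, in the first shUBXN1 library. MT1F and MT1M had 0 counts in all 4 libraries, which allows up to 0.0598 CPM in shCon and 0.0622 CPM in shUBXN1 (3 counts over each group, for counting error only). No fold change is given for these 3 genes. Of all 21 metallothionein genes and pseudogenes in the table, 12 of them protein-coding, 14 had no count in any library and only MT2A and MT1X passed the filter. Outside the members, MT1L had 2 counts and MT1A and MT1DP had 1 each, all in the second shUBXN1 library.

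**Figure D1:**
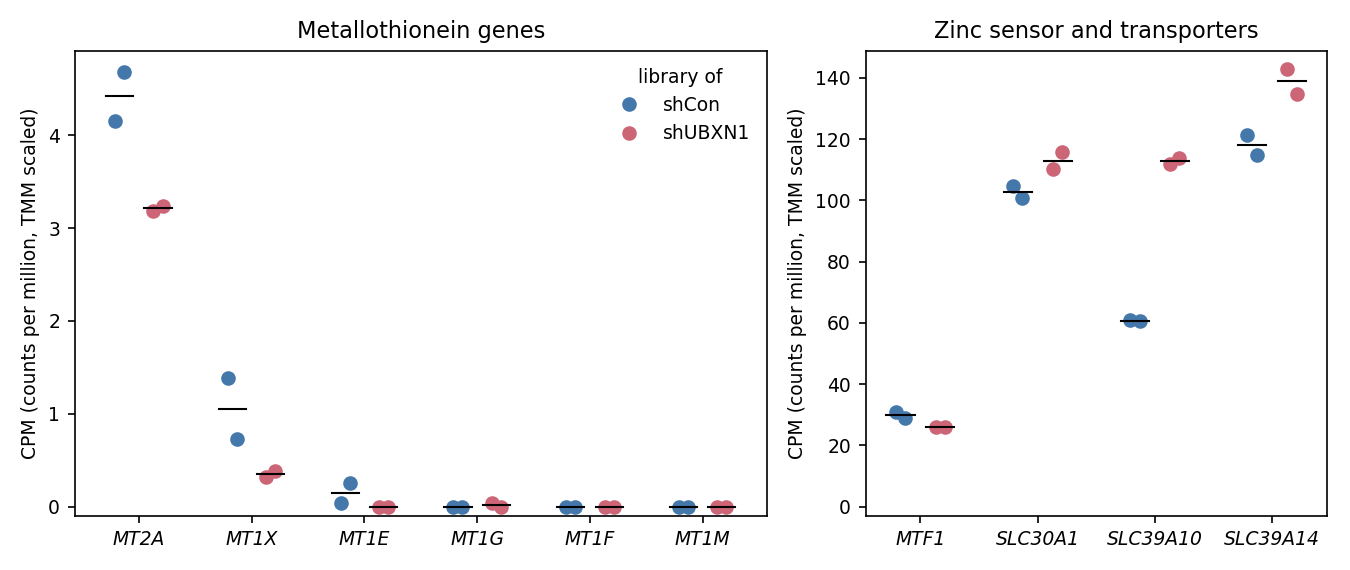
Level of each member in each library, in CPM on linear axes, with 1 point per library and a line at the mean of the 2 libraries of a group. MT2A and MT1X lie lower in shUBXN1 (pink) than in shCon (blue), SLC39A10 rises from 60.7 to 112.8 CPM on average, and MT1F and MT1M lie at 0.

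Short transcripts collect few reads, so levels between genes were compared as TPM, in which counts are divided by the deposited gene length and scaled to a fixed total per library. Among the 19967 protein-coding genes, MT2A with a mean of 15.2 TPM in shCon stood above 64.6% of genes, and MT1X with 5.26 TPM above 50.4%. In shUBXN1 the means were 11.6 and 1.83 TPM, above 59.3% and 41.0% of genes. Among the 995 protein-coding genes with a deposited length under 700 bases, MT2A stood above 73.0% in shCon. Among the genes that passed the filter on low counts, it stood above 47.7% of all 13511 protein-coding genes and above 25.3% of the 360 short ones, whose median was 88.3 TPM. In these 360 short genes 93 rose and 116 fell, with a median log2 fold change of -0.07. Such counts are near the shares over all genes tested, of which 28.0% rose and 28.2% fell.

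The order of the members by mean TPM in shCon was SLC39A14 (110.9), SLC30A1 (35.0), SLC39A10 (22.4), MT2A (15.2), MTF1 (7.57), MT1X (5.26) and MT1E (0.389), with the others at 0. This order rests on the deposited lengths, which can differ from those of the annotated canonical transcripts (MT2A 581 against 401 bases, SLC39A14 2137 against 4663). MTF1 (7.95 and 7.20 TPM) lay above MT1X (6.99 and 3.54 TPM) by less than the spread between the MT1X libraries. SLC30A1 and SLC39A10 changed places in shUBXN1, where SLC39A10 had 44.7 and 42.2 TPM and SLC30A1 had 40.6 and 39.6 TPM, with a gap between the lower SLC39A10 and the higher SLC30A1 library that was smaller than the range of the SLC39A10 libraries.

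All 6 metallothionein members lie in a cluster on chromosome 16, which holds 16 of the 21 metallothionein genes and pseudogenes counted above. Of its neighbours, GNAO1, which encodes a G protein subunit, rose from 4 and 3 counts to 25 and 27 (log2 fold change 2.91, SE 0.581, adjusted p = 6.72e-04). Of the 9 neighbouring genes listed, 7 were tested, of which 2 rose, 3 fell and 2 did not pass, with a median log2 fold change of -0.13. These are near the shares over all genes tested, of which 28.0% rose and 28.2% fell, and are no result about the neighbours. The other genes of this neighbourhood, here and in the plot, were named after their values were seen. BBS2, which encodes a part of the complex that carries cargo into cilia, had 24.3 CPM on average in shCon and 22.2 CPM in shUBXN1 (log2 fold change -0.13, adjusted p = 0.298). NUP93, which encodes a nuclear pore protein, fell from 64.5 to 51.0 CPM (log2 fold change -0.34, adjusted p = 0.00418). BBS2 overlaps OGFOD1 on the other strand, and the counting is not stated to use strand, so their counts may mix.

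**Figure D2:**
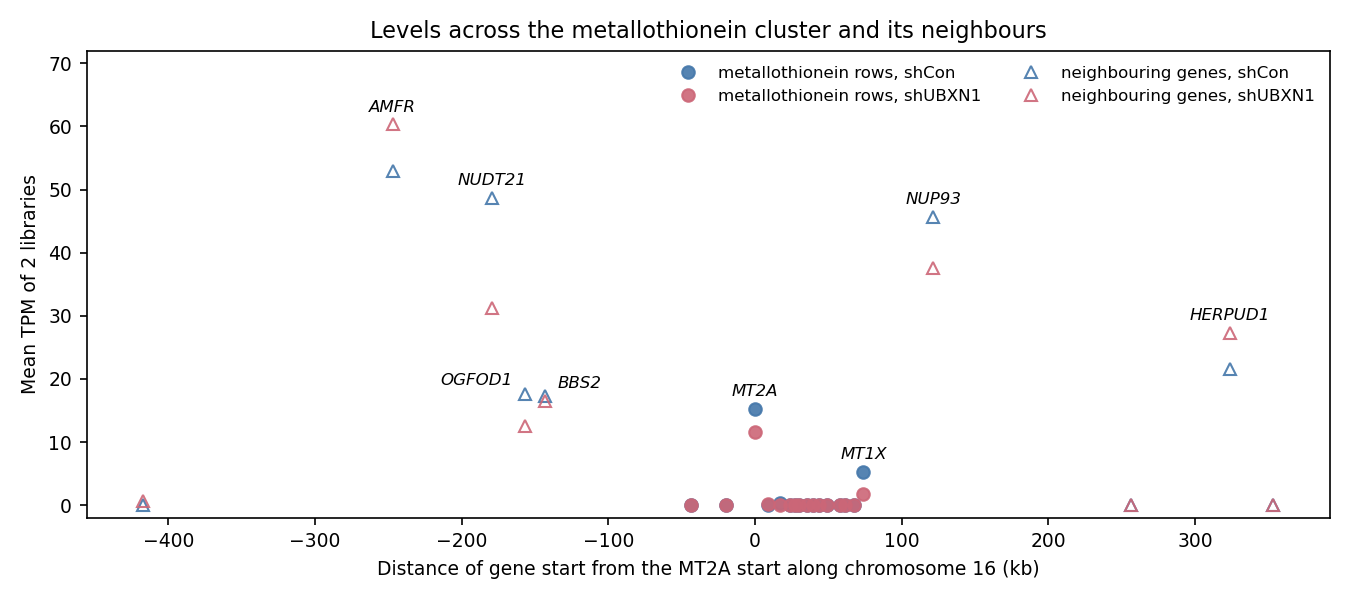
Mean TPM of the 2 libraries of each group (vertical axis, linear) against the distance in kb of each gene start from that of MT2A (horizontal axis), for metallothionein genes and pseudogenes (filled circles) and neighbouring genes (open triangles). Only MT2A and MT1X rise above 1 TPM inside the cluster, while neighbours such as NUP93 reach 45.7 TPM in shCon.

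MTF1 (chr1:37809574-37859592, minus strand), the zinc sensor, had a lower mean in shUBXN1 without passing the test. It had 30.9 and 28.9 CPM in shCon and 25.9 and 25.9 CPM in shUBXN1. The log2 fold change was -0.21 (SE 0.0914) and did not pass the test (adjusted p = 0.064). It did not pass in any of 14 alternatives, where its p ranged from 0.0505 to 0.419. A p above the threshold does not show that MTF1 was the same in both groups.

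SLC30A1 (chr1:211571568-211579161, minus strand), the exporter gene that MTF1 is known to induce along with the metallothioneins, was not lower in shUBXN1. It had 104.8 and 100.7 CPM in shCon and 110.2 and 115.8 CPM in shUBXN1. The mean was higher in shUBXN1, at 113.0 against 102.8 CPM. The log2 fold change of 0.14 (SE 0.0727) did not pass the test (adjusted p = 0.124). SLC30A1 passed when libraries were scaled to their total counts (0.22, adjusted p = 0.00991), a scaling under which the median over all genes went from 0.02 to 0.10. It also passed when a trend with GC content was removed, with limma on log2(TPM + 1), and without the first shUBXN1 library.

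The importer gene SLC39A10 (chr2:195575977-195737702, plus strand) had the largest rise among the members. ZIP10, its product, is a plasma membrane importer known to pair with ZIP6, the product of SLC39A6. SLC39A10 had 60.9 and 60.5 CPM in shCon and 111.8 and 113.7 CPM in shUBXN1, so that the groups lay far apart relative to their spread. On the log2 scale SLC39A10 rose by 0.89 (SE 0.0723, adjusted p = 1.42e-07), and it passed in all 14 alternatives with values from 0.88 to 0.98. SLC39A6, named after its values were seen, also rose, with 113.6 and 107.8 CPM in shCon and 183.9 and 205.6 CPM in shUBXN1 (log2 fold change 0.81, SE 0.0789, adjusted p = 8.51e-07). The difference between the rises of these genes was not tested.

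SLC39A14 (chr8:22367278-22434129, plus strand) encodes ZIP14, an importer of zinc, iron and manganese that inflammatory signals are known to induce in liver. By the deposited lengths SLC39A14 had the highest TPM of the members in both groups, above 92.9% of protein-coding genes in shCon and 94.8% in shUBXN1. Its annotated canonical transcript is longer, at 4663 bases against 2137 deposited, a length that would give a lower TPM. The SLC39A14 values were 121.3 and 114.7 CPM in shCon and 143.0 and 134.8 CPM in shUBXN1. SLC39A14 rose by 0.24 on the log2 scale (SE 0.074, adjusted p = 0.0144). The call was lost without the first shCon library (0.27, adjusted p = 0.0740) and without the second (0.20, adjusted p = 0.226), and it held without either shUBXN1 library.

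Set against all genes, the number of members that changed was ordinary. Of the 6 tested members, 2 rose and 1 fell at an adjusted p under 0.05, in a comparison where 28.0% of all tested genes rose and 28.2% fell. Leaving out 1 library at a time gave 1 to 3 members that rose and 0 or 1 that fell, with 1 that rose without the first or the second shCon library, 3 without the first shUBXN1 library, and 0 that fell without the first shCon library and without the first shUBXN1 library. By the rule of the study, a 2-fold change with an unadjusted p under 0.05, 0 members were higher and 1 was lower (MT1X), against 11.8% and 6.09% of all genes. DESeq2 and limma also had 0 members higher by this rule. At an unadjusted p under 0.05 alone, edgeR had 2 members higher and 2 lower. The median log2 fold change of the tested members was -0.04, beside 0.02 for all genes. These shares are near those of all genes and are no result about the members as a set. By role, 1 of the 2 tested metallothioneins fell, both importer genes rose, and neither the sensor nor the exporter gene passed.

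The other genes of zinc transport were counted in the same way. Of 24 zinc transporter genes, members included, 17 were tested, of which 7 rose, 4 fell and 6 did not pass, beside 28.0% that rose and 28.2% that fell over all genes. Among the 11 tested SLC39 importer genes, 6 rose, 2 fell and 3 did not pass, with a median log2 fold change of 0.24. Among the 6 tested SLC30 exporter genes, 1 rose, 2 fell and 3 did not pass, with a median of -0.03. The exporter gene that rose was SLC30A4, whose product ZnT4 loads zinc into vesicles. It went from 25 and 19 counts to 89 and 104 counts (log2 fold change 2.19, SE 0.322, adjusted p = 4.71e-05), the largest change of any tested zinc transporter gene.

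The other transporter genes that changed are named after their values were seen. SLC39A13, for an importer of the secretory pathway, rose from 17.5 and 15.9 CPM to 26.8 and 27.5 CPM (log2 fold change 0.70). SLC39A4, for the importer of dietary zinc, rose from 14.9 and 16.1 CPM to 26.0 and 23.9 CPM (0.69). SLC39A1, for an importer found in most tissues, rose by a log2 fold change of 0.24 (adjusted p = 0.0203), a call that was lost without the first and without the second shCon library and with the GC trend removed. In the other direction, SLC39A3 fell from 28.3 and 29.3 CPM to 15.2 and 15.9 CPM (-0.89). SLC39A8, whose product ZIP8 is the closest relative of ZIP14, fell from 8.05 and 8.38 CPM to 4.40 and 4.69 CPM (-0.85), so that the genes of this pair moved in opposite directions. SLC30A6, for a ZnT of the secretory pathway, fell from 46.6 and 46.3 CPM to 27.2 and 30.9 CPM (-0.68). SLC30A9 fell by a log2 fold change of -0.19 (adjusted p = 0.0379), a call that was lost under several other settings, total count scaling and DESeq2 among them.

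**Figure D3:**
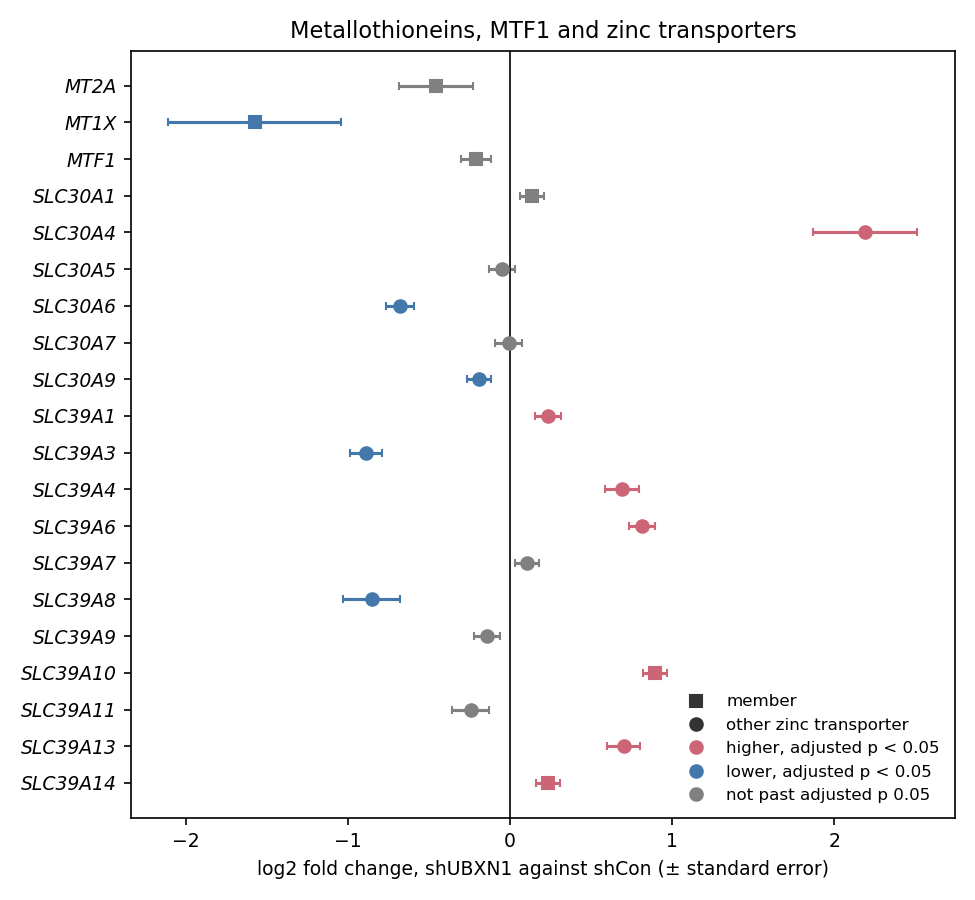
log2 fold change of shUBXN1 against shCon with its standard error for the tested metallothioneins, MTF1 and the tested zinc transporter genes. Squares are members, and colour gives the call at an adjusted p under 0.05, with pink for higher, blue for lower and grey for neither. SLC30A4 has the largest rise (2.19) and MT1X the largest fall (-1.57).

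Genes that share inducers with the metallothioneins were counted from lists of known targets. These lists were chosen with earlier results of these data known, so the shares over all genes are no independent yardstick for them. Of 11 metal and oxidant stress genes, 10 fell, 0 rose and 1 did not pass, with a median log2 fold change of -0.88. Over all genes tested, 28.2% fell and 28.0% rose, with a median of 0.02. HMOX1, the heme-degrading enzyme that metals and oxidants induce, fell from 11307 and 10721 counts to 1256 and 1322 (log2 fold change -3.04, SE 0.0869, adjusted p = 1.20e-11). The heat shock genes HSPA1A (-1.24) and HSPA1B (-1.19) fell as well, though these near-identical copies share reads, and the quinone reductase gene NQO1 fell (-1.09). No gene of this list was higher in edgeR at an unadjusted p under 0.05, and DESeq2 and limma called 0 higher.

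Of 13 copper handling genes, 4 rose, 6 fell and 3 did not pass, with a median log2 fold change of -0.13. The shares over all genes tested were 28.0% that rose and 28.2% that fell, and no shift of the list as a whole is read from these counts. ATP7B, the copper ATPase of hepatocytes, rose from 77 and 64 counts to 164 and 161 (log2 fold change 1.26), and SLC31A2, for a copper transporter of endosomes, rose as well (1.43). Glucocorticoids also induce metallothioneins. Of 9 glucocorticoid target genes, 8 were tested, of which 4 rose and 3 fell, beside the same shares over all genes. The largest changes went both ways, with FKBP5 (-1.66) and TAT (-1.22) lower and KLF9 (1.65) and PER1 (1.36) higher. The call for TAT was lost without the first shCon library.

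Interleukin-6 is known to induce both metallothioneins and SLC39A14 in hepatocytes. Of 16 interleukin-6 and acute phase genes, 9 were tested, of which 3 rose and 6 fell, beside 28.0% and 28.2% of all genes tested. The median log2 fold change of these 9 genes was -1.55. When at least 10 counts were required in every library, which left out the lowest of them, 2 were called lower. The fibrinogen genes FGB (-4.02), FGG (-2.57) and FGA (-2.35) and the acute phase protein gene ORM1 (-2.39), which has a near-identical copy in ORM2, fell. The genes that rose, named after their values were seen, were the signalling genes STAT3 (1.26), SOCS3 (1.39) and IL6ST (0.64).

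The markers of the labelled cell type were checked in the same libraries. All 10 hepatocyte and liver tumor markers were detected. Of these markers, 2 rose, 6 fell and 2 did not pass, beside 28.0% that rose and 28.2% that fell over all genes tested. Their summed level was 4456 and 4611 CPM in shCon and 3468 and 4057 CPM in shUBXN1, most of it from the keratin genes KRT8, which fell (-0.44), and KRT18, which rose (0.31). The other 8 markers summed to 211.0 and 200.2 CPM in shCon and 97.6 and 99.8 CPM in shUBXN1. Among genes of secreted liver proteins, TTR (-3.08), ALB (-1.97), TF (-1.96) and APOB (-1.85) fell, SERPINA1 rose (0.40), and AFP (-0.29) and APOA1 (-0.56) did not pass. The keratin genes, SERPINA1, AFP and APOA1 were named after their values were seen. The part of these shifts in the metallothionein values was not tested.

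Markers of other cell types are given by list, and CD68, PTPRC, CD3E, PECAM1 and CDH5 were named after their values were seen. The 6 immune markers summed to 83.9 and 89.6 CPM in shCon and 73.8 and 71.4 CPM in shUBXN1, most of it CD68. Of the 3 tested, 2 fell, beside 28.2% of all genes tested. PTPRC had at most 4 counts and CD3E had 0 in every library. The 6 stellate cell and fibroblast markers summed to 1.69 and 1.53 CPM in shCon and 3.43 and 3.33 CPM in shUBXN1, with COL1A1 higher (3.11) and DCN lower (-3.16). The 4 endothelial markers summed to 48.4 and 49.9 CPM in shCon and 92.5 and 99.4 CPM in shUBXN1. Of the 3 tested, 2 rose and 0 fell, beside 28.0% and 28.2% of all genes tested. Those that rose were KDR (1.79) and PECAM1, which went from 33.3 and 33.1 CPM to 43.0 and 41.8 CPM (0.35, adjusted p = 0.00208). CDH5, which was not tested, had 3 and 6 counts in shCon and 0 in shUBXN1. The part of these markers in the values of the zinc genes was not tested.

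The genes whose profile over the 4 libraries was nearest to the summed metallothioneins were SNRNP40, DLG3 and KNSTRN. Likeness was the Euclidean distance between log2 values centred on their mean, over 11909 genes with a mean log2 CPM above 2. A small constant was added to each CPM before the log, which shrinks the change of the low metallothionein sum more than that of these genes. Without the constant the log2 ratio of the sum was -0.65, beside a log2 fold change of -0.59 for SNRNP40, so the choice of nearest genes and the distances depend on it. The distances were 0.00842, 0.0139 and 0.0140. SNRNP40, which encodes a splicing factor, had 54.1 and 54.4 CPM in shCon and 35.9 and 36.4 CPM in shUBXN1. With 4 libraries in 2 groups, such a match says little more than that these genes were lower by a like factor with little spread.

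**Figure D4:**
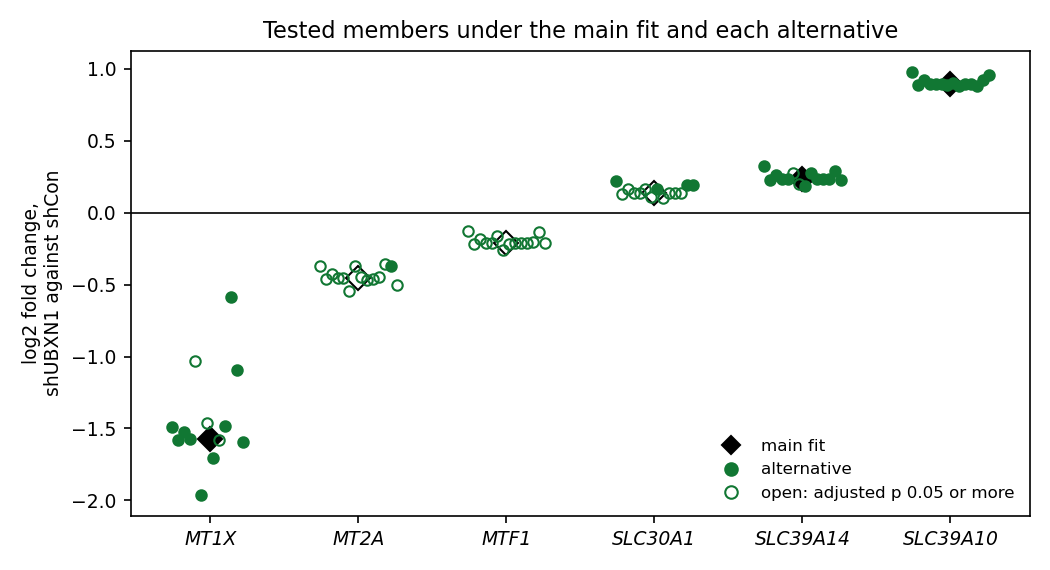
log2 fold change of each tested member under the edgeR test (black diamonds) and under each alternative (green circles), with open symbols where the adjusted p was 0.05 or more. SLC39A10 passes throughout between 0.88 and 0.98, while MT1X ranges from -1.96 to -0.58 and MTF1 never passes.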

How the data were processed

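RNA from 4 MHCC97H libraries, 2 shCon and 2 shUBXN1, was sequenced after mRNA selection. The authors deposited expected counts per gene, not normalized, with a gene length for each gene. By the paper's methods reads were aligned to GRCh38 with Hisat2, TPM was calculated and limma was used, whereas the submitters' processing notes name GRCh37, HISAT2 2.0.4 and StringTie 1.3.0. The methods name a TruSeq kit and shRFP as control, and the labels name a VAHTS kit and shCon. The counting tool, the annotation release and the use of strand are not given in the sources used here. Because the build is stated in 2 ways, genes were joined by Ensembl ID, and 61369 of 61541 IDs (99.7%) matched a symbol in GENCODE v44. All coordinates and sequences are from GRCh38 references, not from the deposited values.

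Expected counts were rounded to whole numbers and passed through filterByExpr and TMM scaling before the quasi-likelihood test (glmQLFTest) of edgeR 4.0.16 in R 4.3.3, with no block. Standard errors were derived as |log2 fold change|/√F. CPM uses TMM-scaled totals, and TPM was computed from the counts and deposited lengths. A zero was set to a floor of 3 counts. The biological coefficient of variation was 0.0711. Replicates differed by more than sampling noise (chi-square per degree of freedom 3.83 and 8.42), so no library was a copy. The test was run on simulated counts with the spread of these libraries and few changed genes, unlike the data. That run checks the code and not the error rate in this comparison. Alternatives were DESeq2 1.42.0, limma 3.58.1 (voom, log2(CPM + 1) and log2(TPM + 1)), total count scaling, no filter, at least 10 counts in every library, unrounded counts, a replicate block and leaving out each library. Removal of a GC trend was added after seeing the data.

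The members and gene lists were chosen with earlier results of these data known. Named genes are the members, UBXN1, at most 4 genes of each other list with an adjusted p under 0.05 and a 2-fold change, any metallothionein past the filter and the 3 genes of nearest profile. Others are marked as named after their values were seen.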

Additional observations from a re-analysis of the deposited data

How the results depend on the processing

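SLC39A10 and UBXN1 kept their direction and call in all 14 alternatives. The number of members that fell at an adjusted p under 0.05, 1 in the edgeR test, was 0 when at least 10 counts were required in every library, since MT1X was then not tested, 0 with DESeq2 and 2 with limma on log2(TPM + 1), which added MT2A. The number lower by 2-fold, 1 in the edgeR test, was 0 with at least 10 counts in every library and 0 with limma on log2(CPM + 1), where the added 1 shrinks the change of a low gene. Leaving out 1 library at a time gave 1 to 3 members higher and 0 to 1 lower at an adjusted p under 0.05, and 0 to 1 lower by 2-fold. The log2 ratio of the summed metallothionein counts, -0.65, was -0.56 under total count scaling and -0.66 with the size factors of DESeq2. Over the named genes and alternatives, 492 values kept their call, 26 lost it, 5 gained it and none changed sign while called. MT1X is limited by depth, with at most 37 counts in a library.

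The replicate numbers are shared across groups, but the labels do not say that a number marks a shared culture or day, and same-numbered libraries did not deviate together across genes (correlation 0.0393). With the replicate block, the log2 fold change was 0.89 for SLC39A10, 0.24 for SLC39A14 (adjusted p = 0.00427), -1.52 for MT1X (adjusted p = 0.0203), -0.45 for MT2A and -2.03 for UBXN1, and no member's call changed. The block gave 5000 genes higher and 5023 lower over all genes, beside 4727 and 4751 without it.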
